A study of Mus musculus with 6 samples.

Results

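The 35 genes described here encode proteins of the lysosome. They were taken as a list of lysosomal enzymes, activators and membrane proteins, chosen with earlier results of these data known. Each had to reach 60 counts in total over the 6 libraries. All 35 did so, out of 16840 genes in the count table, and all 35 were among the 12340 genes tested after removal of low counts. The member with the fewest reads, Arsb, had 6547 counts. Among lysosomal genes outside the list, Ctse with 34 counts and Cst7 with 26 lay under that limit. The list held 11 proteases, 11 enzymes that act on sugar chains (10 glycosidases and the sulfatase Arsb), 5 lipid hydrolases and their activators, 7 membrane proteins, and progranulin (Grn).

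RNA had been sequenced from cultured mouse alveolar macrophages, the resident phagocytes of the lung's air spaces, of wild-type genotype at day 2. There were 3 groups of 2 libraries: no GM-CSF, GM-CSF stimulation, and GM-CSF stimulation together with a treatment that the labels call DON, with no dose or full name. GM-CSF is granulocyte-macrophage colony-stimulating factor, the cytokine on which alveolar macrophages depend for their development. From the labels it is not clear if these were primary cells or an established line, nor if the 2 libraries of a group came from separate cultures or animals, so p-values here measure only the spread between these libraries.

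Lysosomal hydrolases are made in the endoplasmic reticulum, tagged with mannose 6-phosphate in the Golgi and carried by its receptors to an acidic compartment, where they break down proteins, sugar chains and lipids taken up by the cell. In alveolar macrophages this load includes surfactant lipid and protein. Many lysosomal genes carry a short palindrome, CACGTG with preferred flanking bases, near their start, which is bound by transcription factors of the TFEB and TFE3 family and, as a general E-box, by several other factors. Loss of single enzymes causes storage diseases, such as Pompe disease for Gaa (glycogen) and Tay-Sachs disease for Hexa (ganglioside).

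Total counts per library lay between 28321986 and 35196387. The label was checked against marker lists, also chosen with earlier results known. Levels are in CPM, which are counts after scaling for library size. The summed level of alveolar macrophage markers was between 6665 and 7064 CPM without GM-CSF, between 12581 and 12742 with GM-CSF and between 14645 and 14787 with GM-CSF and DON. Of the 9 markers in that sum, Chi3l3 (1809 and 1819 CPM without GM-CSF, 5536 and 5551 with it), 1600029D21Rik (323 and 336, 2395 and 2204) and Car4 (0.215 and 0.238, 661 and 652) were higher with GM-CSF. Fabp4 (686 and 733 CPM, 335 and 310), Siglec5 (511 and 476, 388 and 400) and Pparg (128 and 139, 106 and 105) were lower, and the libraries of Itgax, Marco and Ear2 were closer or overlapped. With DON added, Chi3l3 (7761 and 7643 CPM), Itgax (3932 and 4004), Fabp4, Siglec5 and Pparg were higher than with GM-CSF alone. Car4 (325 and 303 CPM), 1600029D21Rik (1502 and 1472), Marco (38.8 and 34.7) and Ear2 (101 and 88.4) were lower with DON than with GM-CSF alone. The summed level of general macrophage markers was higher without GM-CSF, at 38629 to 38993 CPM, than with GM-CSF, at 18719 to 18804, or with DON added, at 20001 to 21388. Most of that sum was Lyz2, at 36620 and 36570 CPM without GM-CSF and 17101 and 17052 with it. Csf1r (845 and 751 CPM, 382 and 342), Emr1 (299 and 279, 54.1 and 54.7) and Mertk (231 and 217, 126 and 139) were also lower with GM-CSF. In contrast, Mrc1 (987 and 801, 1112 and 1103) and Fcgr1 (11.2 in both, 28.6 and 29.4) were higher with GM-CSF. Markers of epithelium did not exceed 4.90 CPM in any library, stroma 1.91 CPM and lymphocytes 0.134 CPM (2 of 6 lymphocyte markers were in the table). Dendritic cell markers summed to 5.69 to 6.33, 17.9 to 18.1 and 20.1 to 20.3 CPM in the 3 groups, and S100a8, the only 1 of 6 granulocyte markers in the table, was at 16.0 to 17.2, 3.76 to 4.34 and 3.04 to 3.78 CPM. These marker levels moved with the groups, and their part in the results below was not tested. In bulk RNA, fewer cells of a kind and less RNA per cell cannot be told apart.

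Per unit of gene length, in the authors' FPKM (fragments scaled by gene length and library size), the lysosomal genes ran from among the most abundant genes of the table to a mean of 8.97 FPKM. Of the 12340 genes tested, 4877 were at or above the mean CPM of the lowest member, a limit set by the members themselves. Ctsd, the aspartic protease cathepsin D, had the highest level with a mean of 8076 FPKM over the 6 libraries and stood at rank 7 of the whole table. Psap, whose product is cut into the saposins that help enzymes reach lipids, followed with 7568 FPKM at rank 8. Ctss (2772 FPKM), Cd68 (2344 FPKM), Ctsk (2010 FPKM) and Ctsb (1917 FPKM) came next, and Cd63, Ctsa, Lamp1 and Grn lay between 1120 and 758 FPKM. The lowest members were Manba at 22.1, Smpd1 at 16.7 and Arsb at 8.97 FPKM. Proteases filled most of the upper end of the order and glycosidases most of the lower end.

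The order at the top was not the same in every group. Without GM-CSF, Ctsd stood at 10783 ± 18.5 FPKM (SD, n = 2) and Psap at 7466 ± 22.6. With GM-CSF the order was reversed, with Ctsd at 5517 ± 55.3 FPKM and Psap at 7143 ± 93.8. With GM-CSF and DON, Ctsd at 7927 ± 290 FPKM and Psap at 8095 ± 34.7 lay within the spread of the Ctsd libraries. Ctsk and Ctss, neighbouring genes on chromosome 3 (chr3:95499256-95509362 and chr3:95526786-95556403, plus strand, GRCm38), had 3037 ± 3.92 and 3108 ± 17.7 FPKM without GM-CSF but 1249 ± 34.9 and 2424 ± 12.1 with it. Within the glycosidases, Hexa (510 ± 3.93 FPKM) stood above Gusb (300 ± 0.871) without GM-CSF, and with GM-CSF Hexa (246 ± 0.163) lay below Gusb (266 ± 11.6).

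**Figure D1:**
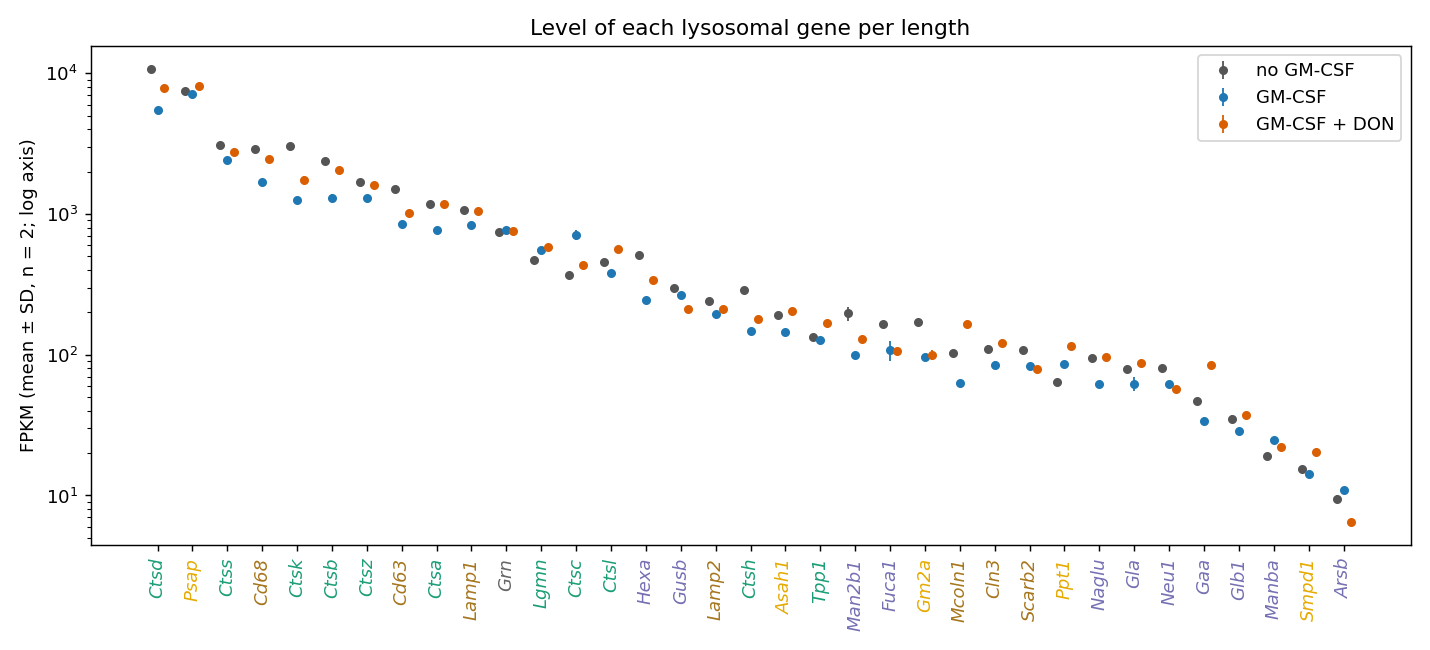
Level of each of the 35 lysosomal genes per unit length, as mean FPKM of the 2 libraries of each group on a log axis, with bars for the SD (n = 2) that are mostly smaller than the points. Gene names are coloured by class; Ctsd and Psap lead, and Arsb is lowest at a mean of 8.97 FPKM.

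A large part of each library consisted of reads from these genes. The 35 genes took 7.35% ± 0.0681 (SD, n = 2) of all counts in libraries lacking GM-CSF, 5.57% ± 0.0458 with it and 6.98% ± 0.0863 after DON, and the libraries of the 3 groups did not overlap. The proteases took 4.33%, 2.79% and 3.77% of the counts in the same order, with Ctsd alone at 1.93%, 1.07% and 1.52% and Ctsb at 1.04%, 0.613% and 0.951%. The lipid group took 1.85%, 1.88% and 2.13%, nearly all of it Psap (1.73%, 1.79% and 2.01%). Membrane proteins took 0.684%, 0.495% and 0.629%, and glycosidases with the sulfatase 0.335%, 0.239% and 0.283%. Of the counts that fell on the 35 genes, Ctsd held 26.1% and 26.3% in the libraries without GM-CSF, 19.1% and 19.3% with it, and 22.0% and 21.6% with DON added. Psap held 23.5% in both libraries without GM-CSF, 32.5% and 31.6% with it, and 28.4% and 29.3% with DON added. Psap, Ctsd and Ctsb were among the 10 most abundant genes by count. Without those 10 genes, in numerator and denominator, the shares of the remaining lysosomal genes were 3.10%, 2.38% and 2.90%, and those of the lipid group, then lacking Psap, 0.144%, 0.110% and 0.140%.

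**Figure D2:**
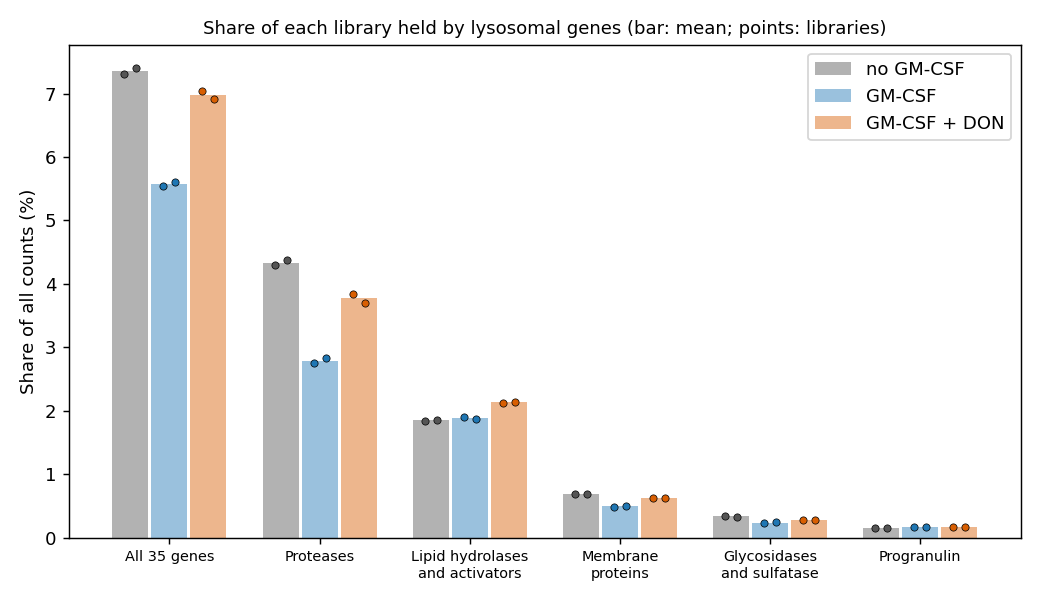
Share of all counts, in percent, held by the 35 lysosomal genes and by each class, as bars for the mean of each group with points for the 2 libraries. The total is 7.35% in the first group, 5.57% after GM-CSF and 6.98% after DON, while the lipid group is highest after DON at 2.13%.

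With GM-CSF against no GM-CSF, most lysosomal genes were lower. By the quasi-likelihood test of edgeR (adjusted after Benjamini and Hochberg over the 12340 tested genes, and called at an adjusted p under 0.05), 26 of 35 fell, 5 rose and 4 did not pass. Over all genes tested, 56.8% were called, 29.3% as lower and 27.5% as higher, so a call alone was common in this comparison. Among the 4877 genes at least as abundant as the lowest member, 33.5% were called lower and 36.0% higher. The median log2 fold change of the 35 was -0.38 against -0.02 over all genes. A fall of 2-fold or more was reached by 2 members, Ctsk and Hexa, where 11.7% of all genes changed by 2-fold or more in either direction. In none of the 35 did the libraries of the 2 groups overlap, and this held also for the 4 that did not pass. The share of all tested genes without overlap is not given here, so this count has no background. With libraries scaled by their total counts instead of TMM, the trimmed mean of M values, the log2 fold changes of all genes shifted by 0.12, the split over all genes moved from 3393 higher and 3621 lower to 4587 higher and 2689 lower, and of the 35 members 25 fell and 6 rose.

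**Figure D3:**
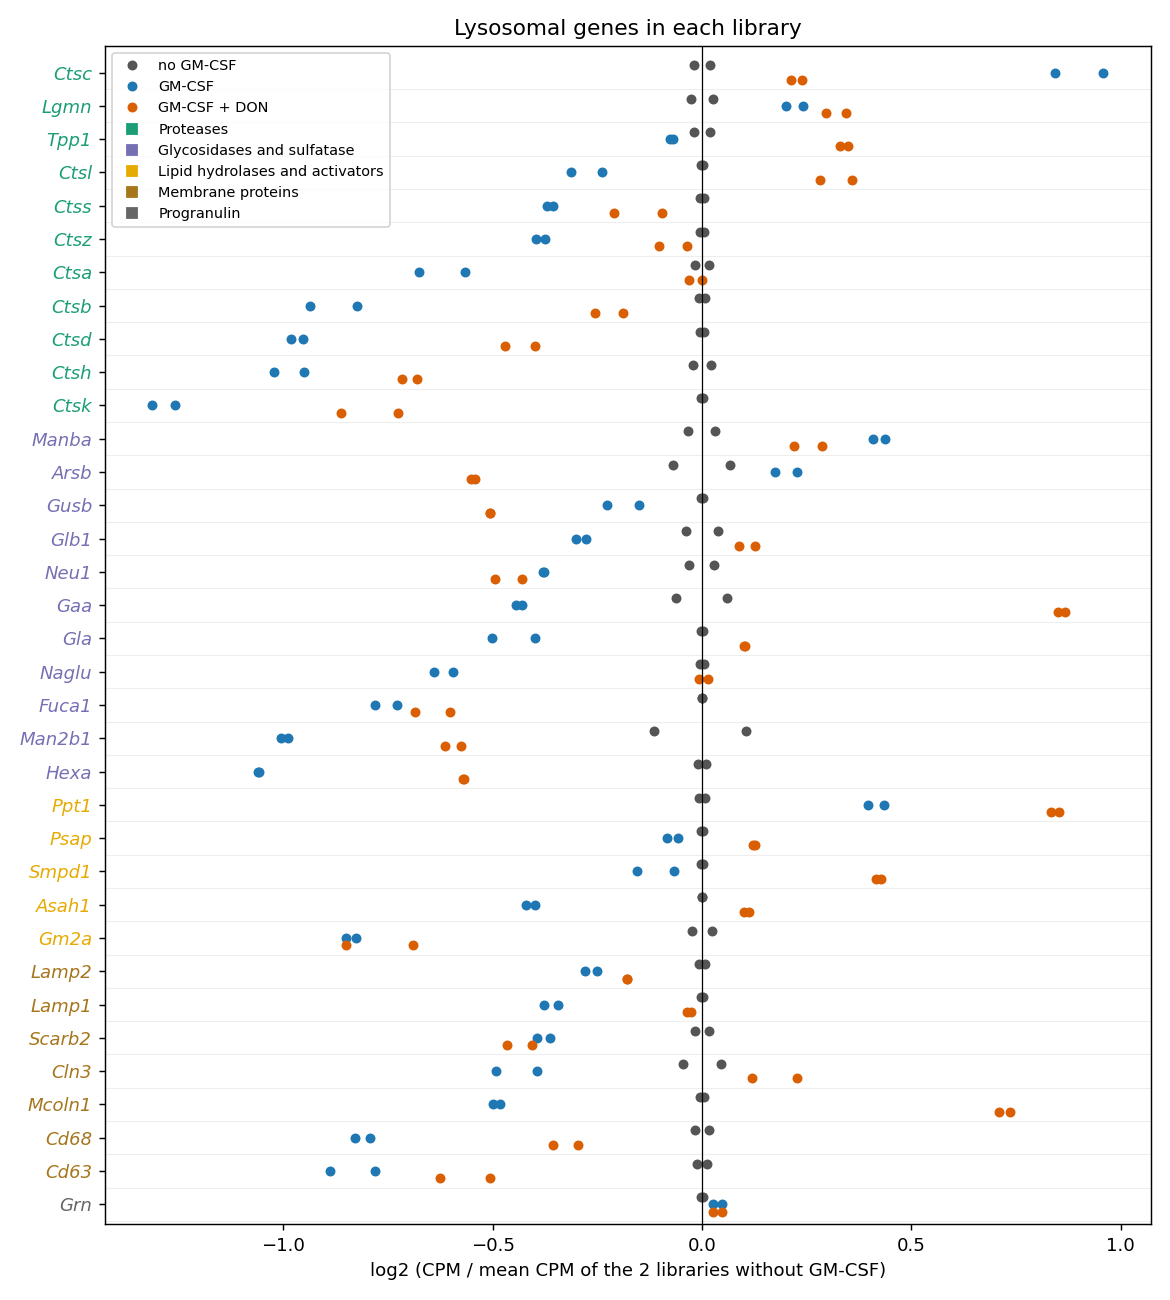
Level of the 35 lysosomal genes in each library, as log2 of CPM over the mean CPM of the 2 libraries without GM-CSF, with 1 row per gene, rows grouped by class and 1 point per library. Most GM-CSF points lie left of 0, with Ctsk, Hexa and Man2b1 farthest to the left and Ctsc farthest to the right, and most DON points lie to the right of the GM-CSF points.

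Cathepsins are classed by the residue of their active site as cysteine, aspartic or serine proteases. The 7 cysteine cathepsins of the list (Ctsb, Ctsc, Ctsh, Ctsk, Ctsl, Ctss and Ctsz) had 6 members that fell and 1 that rose with GM-CSF, with a median log2 fold change of -0.38. Ctsk, a collagen-cleaving protease best known from osteoclasts, had 3923 and 3942 CPM without GM-CSF and 1583 and 1642 CPM with it. Its log2 fold change of -1.29 ± 0.05 (SE; adjusted p = 1.12e-08) was the lowest of the 35. Ctsh, an aminopeptidase, went from 326 and 317 CPM to 166 and 158 (-0.99 ± 0.04), and Ctsb, one of the most abundant cathepsins, from 10843 and 10967 CPM to 5700 and 6157 (-0.88 ± 0.04). All 3 were clearly separated between the groups. Ctss, which trims the invariant chain in antigen presentation, fell less, from 3640 and 3620 CPM to 2836 and 2808 (-0.36 ± 0.04), as did Ctsz, a carboxypeptidase (-0.38 ± 0.04), and Ctsl, an endopeptidase (-0.28 ± 0.04).

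The cysteine cathepsin that went the other way was Ctsc (chr7:88278085-88310888, plus strand), the dipeptidyl peptidase that activates granule serine proteases. Ctsc had 785 and 765 CPM without GM-CSF and 1505 and 1390 with it, a log2 fold change of 0.90 ± 0.04 (adjusted p = 9.31e-08) and the highest of the 35. Per length it stood at 371 ± 2.90 FPKM without GM-CSF, below Ctsl at 457 ± 6.85, and at 710 ± 55.8 FPKM with GM-CSF, above Ctsl at 384 ± 14.4.

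Outside the cysteine cathepsins, Ctsd fell from 20167 and 20330 CPM to 10253 and 10461, a log2 fold change of -0.97 ± 0.03 (adjusted p = 8.16e-09). Ctsa, a serine carboxypeptidase that also holds Neu1 and Glb1 in a protective complex, fell from 1786 and 1830 CPM to 1131 and 1221 (-0.62 ± 0.04). Lgmn, the asparaginyl endopeptidase that processes several cathepsins, rose from 798 and 829 CPM to 935 and 962 (0.22 ± 0.04). Tpp1, a tripeptidyl peptidase, did not pass the test, at 450 and 439 CPM against 424 and 422 (log2 fold change -0.07 ± 0.04, adjusted p = 0.121). Over the 11 proteases, 8 fell and 2 rose, with a median log2 fold change of -0.38.

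The 11 sugar-chain enzymes divided into 9 that fell and 2 that rose with GM-CSF, with a median log2 fold change of -0.44. Hexa, the alpha subunit of beta-hexosaminidase, fell from 850 and 862 CPM to 411 and 410, a log2 fold change of -1.06 ± 0.04 (adjusted p = 7.23e-09). Man2b1, the lysosomal alpha-mannosidase, fell from 876 and 752 CPM to 410 and 405 (-0.997 ± 0.06), and its libraries without GM-CSF were the most widely spread of the class. Naglu, which acts on heparan sulfate, and Fuca1, the alpha-fucosidase, had log2 fold changes of -0.62 ± 0.04 and -0.76 ± 0.05. Gla, Gaa, Neu1, Glb1 and Gusb fell by less, with log2 fold changes between -0.45 for Gla and -0.19 for Gusb. The enzyme for beta-linked mannose, Manba, was called in the direction opposite to Man2b1: it rose from 64.4 and 61.6 CPM to 83.6 and 85.3 (0.42 ± 0.05, adjusted p = 5.7e-05). Arsb, which removes sulfate from dermatan and chondroitin sulfate, was at 34.4 and 37.7 CPM without GM-CSF and 42.2 and 40.7 with it (0.20 ± 0.06, adjusted p = 0.0188). That call was lost without the first library lacking GM-CSF, without the first GM-CSF library, with DESeq2 and with limma on FPKM values, and its adjusted p over all 14 alternatives lay between 0.00165 and 0.155.

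The 5 lipid-handling genes showed the mildest pattern, with 2 that fell, 1 that rose, 2 that did not pass and a median log2 fold change of -0.11, which became 0.01 when libraries were scaled by total counts. Gm2a, the activator that presents ganglioside to hexosaminidase, fell from 663 and 685 CPM to 373 and 380 (-0.84 ± 0.05), near the change of its partner Hexa. Asah1, acid ceramidase, fell from 452 in both libraries to 342 and 338 CPM (-0.41 ± 0.04). The gene that rose was Ppt1, the thioesterase that strips fatty acyl groups from proteins, from 140 and 139 CPM to 184 and 189 (0.42 ± 0.04). Psap was at 18188 and 18151 CPM without GM-CSF and 17462 and 17144 with it (-0.07 ± 0.03, adjusted p = 0.0568), and Smpd1, acid sphingomyelinase, at 34.1 and 34.3 against 30.7 and 32.6 (-0.11 ± 0.06, adjusted p = 0.123). Psap was called lower without the first GM-CSF library, without either DON library and with no filter on low counts, and its adjusted p over 14 alternatives lay between 0.0265 and 0.412.

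All 7 membrane proteins fell with GM-CSF, with a median log2 fold change of -0.44. Cd63, a tetraspanin, fell from 1059 and 1076 CPM to 576 and 621 (-0.83 ± 0.05). Cd68, the glycoprotein used as a macrophage marker, fell from 2898 and 2830 CPM to 1653 and 1611 (-0.81 ± 0.04). Lamp1 and Lamp2 changed less, Lamp1 from 2211 and 2217 CPM to 1704 and 1745 (-0.36 ± 0.03) and Lamp2 from 635 and 629 to 521 and 531 (-0.27 ± 0.04). Mcoln1, the mucolipin calcium channel, Cln3, mutated in juvenile Batten disease, and Scarb2, the carrier of glucocerebrosidase, had log2 fold changes of -0.49 ± 0.04, -0.44 ± 0.06 and -0.38 ± 0.04. Grn, the precursor of granulins, did not pass, at 1563 and 1555 CPM without GM-CSF and 1588 and 1612 with it (0.04 ± 0.03, adjusted p = 0.369). With libraries scaled by total counts Grn was called higher, at a log2 fold change of 0.16 (adjusted p between 0.00176 and 0.596 over 14 alternatives).

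The second comparison set the DON libraries, which also had GM-CSF, against those with GM-CSF alone, and so shares the GM-CSF libraries with the first. Here 24 of the 35 genes rose, 4 fell and 7 did not pass edgeR's test. Over all genes tested 57.6% were called, 28.8% as higher and 28.8% as lower, and among the genes at least as abundant as the lowest member 30.0% were called higher and 40.8% lower. The median log2 fold change of the 35 was 0.40 against 0.01 over all genes. A change of 2-fold or more was found for 2 members, Gaa and Mcoln1, both higher with DON, where 9.37% of all genes changed by 2-fold or more. The libraries of the 2 groups overlapped in 2 of the 35, Gm2a and Grn, again with no share over all genes to set beside it.

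The change of Gaa, acid alpha-glucosidase, which breaks down glycogen in the lysosome (chr11:119267887-119285454, plus strand), was the highest in this comparison. Gaa had 109 and 110 CPM with GM-CSF and 272 and 268 with DON added, a log2 fold change of 1.30 ± 0.05 (adjusted p = 5.56e-08). Mcoln1 (chr8:3500457-3515232, plus strand) went from 83.0 and 84.0 CPM to 195 and 192, a log2 fold change of 1.21 ± 0.04 (adjusted p = 3.91e-08). In both genes the DON libraries also lay above those without GM-CSF, at 155 and 142 CPM for Gaa and 117 and 118 for Mcoln1. The ratio of counts to FPKM of Mcoln1, which a fixed gene length would keep constant, was 107 and 112 in the GM-CSF libraries and between 92.7 and 96.6 in the other 4, relative to its mean set at 100. On FPKM values, with limma on log2(FPKM + 1), its log2 fold change was 1.37.

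Of the proteases, 9 rose and 1 fell with DON, with a median log2 fold change of 0.41. The largest rise in this class was that of Ctsb, from 5700 and 6157 CPM to 9567 and 9137 (0.66 ± 0.04, adjusted p = 9.21e-07). Ctsa rose from 1131 and 1221 CPM to 1809 and 1770 (0.61 ± 0.04), Ctsl from 464 and 488 to 739 and 701 (0.60 ± 0.04), and Ctsd from 10253 and 10461 to 15355 and 14618 (0.53 ± 0.03). These 4 genes had no library of one group within the range of the other. Ctsk had 2378 and 2162 CPM with DON, a log2 fold change of 0.49 ± 0.05 (adjusted p = 1.16e-05), and Tpp1, which had not passed in the first comparison, rose from 424 and 422 CPM to 566 and 559 (0.41 ± 0.04). Ctsz (0.32 ± 0.04), Ctsh (0.29 ± 0.04) and Ctss (0.21 ± 0.04) rose less. Ctsc, the cathepsin that had risen with GM-CSF, was the only protease that fell with DON, from 1505 and 1390 CPM to 914 and 898 (-0.68 ± 0.04, adjusted p = 1.06e-06). Lgmn, at 1033 and 998 CPM with DON, did not pass (0.10 ± 0.04, adjusted p = 0.0525), but passed without the second DON library and with no filter on low counts (adjusted p between 0.0493 and 0.224 over 14 alternatives).

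The sugar-chain enzymes were the most divided class, with 6 that rose, 3 that fell and a median log2 fold change of 0.40. Apart from Gaa, Naglu rose from 138 and 142 CPM to 214 and 217 (0.62 ± 0.04), Gla from 152 and 163 to 230 and 231 (0.55 ± 0.05), Hexa from 411 and 410 to 576 and 577 (0.49 ± 0.04), and Glb1 and Man2b1 by 0.40 each on the log2 scale. Arsb fell from 42.2 and 40.7 CPM to 24.6 and 24.8, a log2 fold change of -0.75 ± 0.06 (adjusted p = 6.71e-06) and the lowest of the 35. Gusb, beta-glucuronidase, fell from 618 and 652 CPM to 509 in both libraries (-0.32 ± 0.04, adjusted p = 7.29e-05). These 2 genes were lower with DON than in both other groups. Manba was also called lower (-0.17 ± 0.05, adjusted p = 0.016), but not without the second GM-CSF library or without the first DON library (adjusted p between 0.00964 and 0.0976 over 14 alternatives). Neu1, at 140 and 134 CPM, and Fuca1, at 126 and 119, did not pass (-0.08 ± 0.05, adjusted p = 0.146, and 0.11 ± 0.05, adjusted p = 0.0694). Without the second DON library Fuca1 was called higher (adjusted p between 0.0442 and 0.946 over 14 alternatives).

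In the lipid group 4 genes rose and none fell, with a median log2 fold change of 0.43. Smpd1 rose from 30.7 and 32.6 CPM to 45.6 and 46.0 (0.53 ± 0.06), Asah1 from 342 and 338 to 485 and 488 (0.52 ± 0.04), and Ppt1 from 184 and 189 to 249 and 252 (0.43 ± 0.04). Psap rose from 17462 and 17144 CPM to 19830 and 19758 (0.19 ± 0.03, adjusted p = 0.000232). Gm2a stood apart from its partner Hexa: it had 418 and 373 CPM with DON, which overlapped the 373 and 380 with GM-CSF (0.07 ± 0.05, adjusted p = 0.278). Without the second DON library Gm2a was called higher, at a log2 fold change of 0.15 (adjusted p between 0.026 and 0.840 over 14 alternatives).

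Of the membrane proteins 5 rose and none fell with DON, with a median log2 fold change of 0.33. Below Mcoln1, Cln3 rose from 72.2 and 67.4 CPM to 111 and 103 (0.62 ± 0.06), Cd68 from 1653 and 1611 to 2332 and 2239 (0.49 ± 0.04), Lamp1 from 1704 and 1745 to 2175 and 2159 (0.33 ± 0.03) and Cd63 from 576 and 621 to 752 and 692 (0.27 ± 0.05). Lamp2 (0.09 ± 0.04, adjusted p = 0.0626) and Scarb2 (-0.06 ± 0.04, adjusted p = 0.296) did not pass, and Lamp2 was called higher with limma on FPKM values. Grn, at 1612 and 1588 CPM, overlapped its GM-CSF libraries (0.00 ± 0.03, adjusted p = 0.996).

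**Figure D4:**
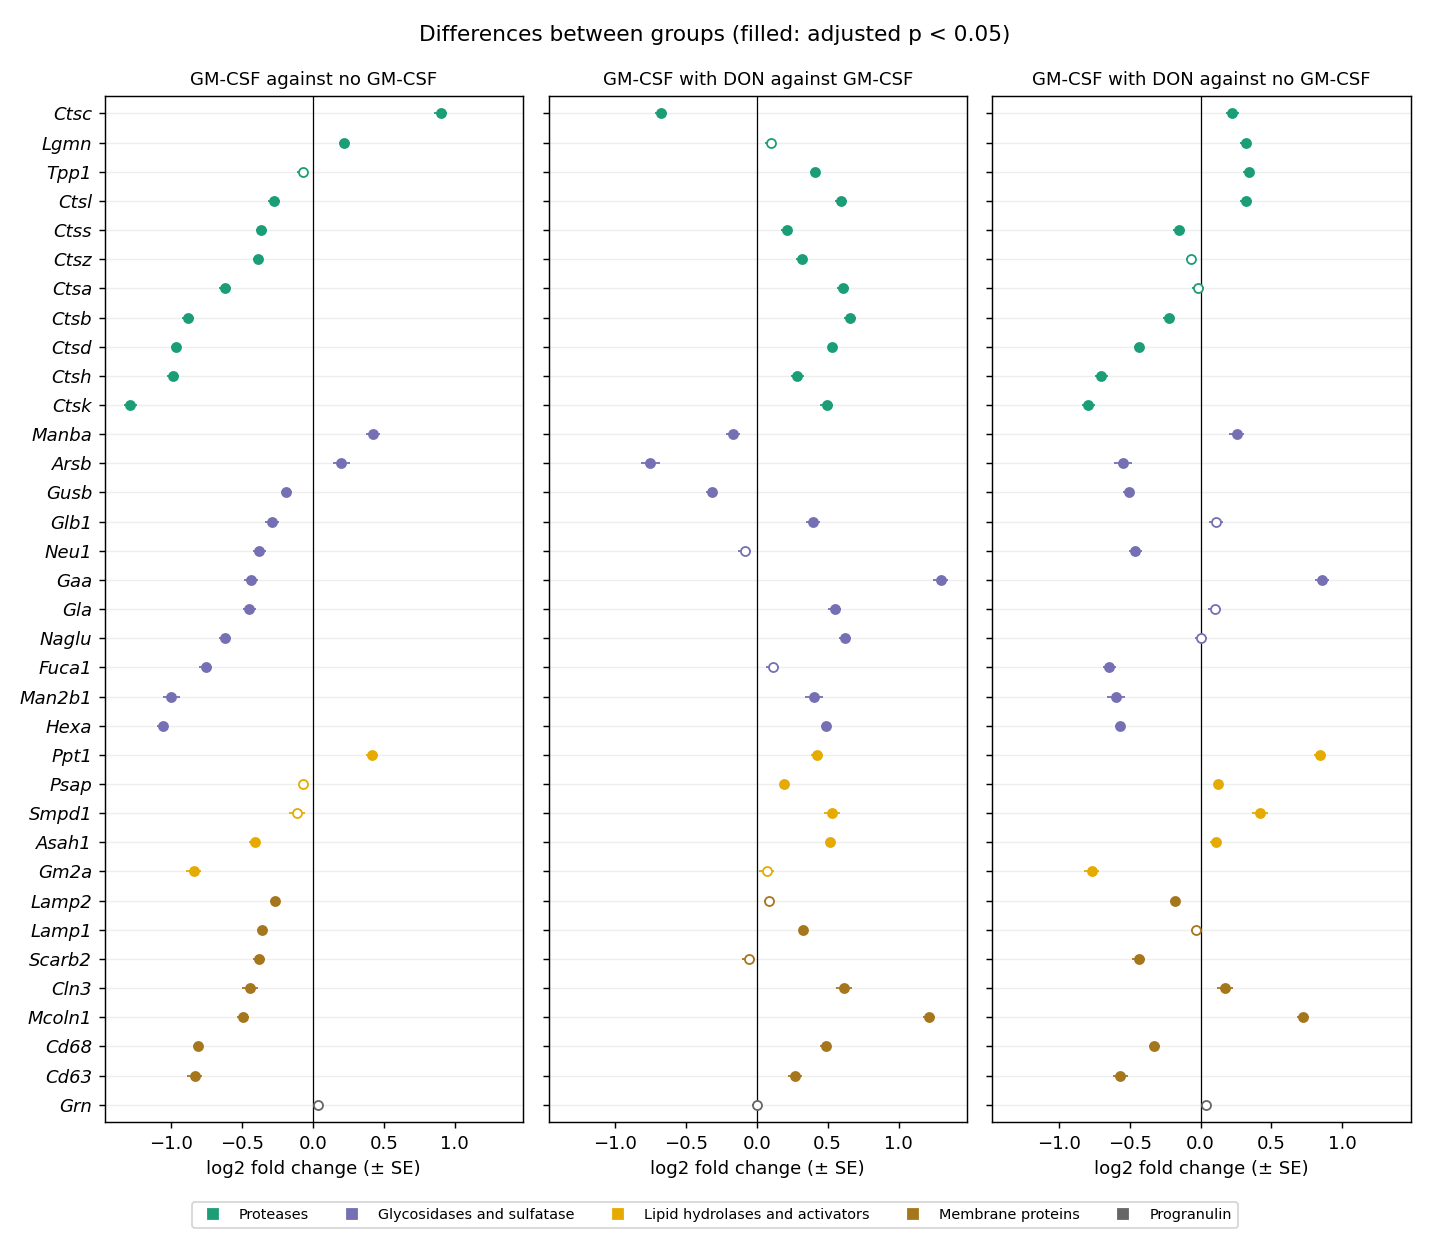
Fitted log2 fold change of each of the 35 genes in the 3 comparisons, with bars for the SE, points filled where edgeR's adjusted p was under 0.05, and genes grouped by class. The comparison of GM-CSF against none lies mostly below 0 (median -0.38), that of DON against GM-CSF alone mostly above 0 (median 0.40), and that of DON against no GM-CSF on both sides (median -0.03).

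Set against the libraries without GM-CSF, the DON libraries were mixed: 12 of the 35 genes were higher, 16 lower and 7 did not pass edgeR's test. Over all genes tested 55.6% were called, 27.2% as higher and 28.4% as lower, and 29.7% and 38.5% among the genes at least as abundant as the lowest member. The median log2 fold change was -0.03 against 0.01 over all genes, and none of the 35 reached 2-fold, where 11.6% of all genes did. The libraries overlapped in Ctsa and Naglu, and here too the share over all genes is not given. Scaling by total counts shifted all genes by 0.10, changed the split over all genes from 3353 higher and 3506 lower to 4408 higher and 2745 lower, and turned that of the 35 members to 15 higher and 14 lower, with a median of 0.07. Because the 3 comparisons share libraries, the values of each are given side by side and no relation between them was tested.

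The genes that stood highest against no GM-CSF were Gaa (0.86 ± 0.05), Ppt1 (0.84 ± 0.04), Mcoln1 (0.72 ± 0.04) and Smpd1 (0.42 ± 0.06). Ppt1 was the one member called higher in all 3 comparisons, from 140 and 139 CPM through 184 and 189 to 249 and 252. Those that stood lowest were Ctsk (-0.79 ± 0.05), Gm2a (-0.77 ± 0.05), Ctsh (-0.70 ± 0.04) and Fuca1 (-0.64 ± 0.05). Gusb was the one member called lower in all 3 (722 and 725, 618 and 652, and 509 and 509 CPM), although its fall with GM-CSF (-0.19 ± 0.04) did not pass with libraries scaled by total counts. Members that did not pass this test were Ctsz, Ctsa, Gla, Glb1, Naglu, Lamp1 and Grn. For Ctsa the log2 difference was -0.02 ± 0.04, for Naglu 0.00 ± 0.04 and for Lamp1 -0.03 ± 0.03.

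By class, the lipid group had 4 genes higher and 1 lower against no GM-CSF (median 0.12), the proteases 4 higher and 5 lower (median -0.07, or 0.03 with libraries scaled by total counts), the membrane proteins 2 higher and 4 lower (median -0.18) and the sugar-chain enzymes 2 higher and 6 lower (median -0.46). The cysteine cathepsins alone had 2 higher, Ctsl (0.32 ± 0.04) and Ctsc (0.23 ± 0.04), and 4 lower, with a median of -0.15. Differences between the classes were not tested. Several small changes were called or not depending on the libraries or the method used. Asah1 (0.11 ± 0.04, adjusted p = 0.0308) was no longer called when any 1 of the 4 libraries compared was left out (adjusted p between 0.000924 and 0.119 over 15 alternatives). Cln3 (0.17 ± 0.06, adjusted p = 0.0282) lost its call without the first library lacking GM-CSF or the first with DON, with DESeq2 and with limma on FPKM values (between 0.00258 and 0.188). Ctss (-0.15 ± 0.04, adjusted p = 0.00944) lost it without the second library with DON, with total counts and with limma on log2(FPKM + 1) (between 0.00191 and 0.219). Psap (0.12 ± 0.03, adjusted p = 0.00425) lost it with limma on FPKM values (between 4.91e-05 and 0.151). With libraries scaled by total counts, Lamp2 (-0.18) also lost its call, while Gla, Glb1 and Grn were called higher, and Gla was called higher with crossed replicate numbers as a block.

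The start regions of the members were searched for the palindrome CACGTG, because of its known place in lysosomal genes. RefSeq promoter windows (GRCm38.p6, 250 bases before to 50 after each start) were at hand for 32 of the 35 genes, and the genes with no window were Ctsb, Ctsh and Asah1. The letters CACGTG, which read the same on both strands, occurred in the windows of 11 members (34.4% of 32): Cln3, Ctsa, Ctsd, Ctsl, Gaa, Gla, Glb1, Lamp1, Lgmn, Mcoln1 and Naglu. Among 32851 promoter windows of all genes 7.15% held them, and among the 8536 tested genes with a window 12.1% did. The longer TCACGTGA, which contains CACGTG, was found in 5 members (15.6%), Cln3, Ctsa, Ctsd, Gla and Mcoln1, against 2.27% of tested genes, and the same letters with a further G before and C after them in 1 member, Cln3, against 0.867%. Windows are given here 5′ to 3′ on the strand of the gene, for the members with the largest rises with DON and for contrast; capitals mark CACGTG together with the adjoining bases that go on matching this longest palindrome, and the distance is from the first base of CACGTG to the RefSeq start.
Gaa, 140 bases before the start, chr11:119267808-119267843, plus strand: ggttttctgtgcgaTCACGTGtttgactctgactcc
Mcoln1, 71 bases before the start, chr8:3500438-3500463, plus strand: tcgcgcttGTCACGTGttcagttcag
Mcoln1, 45 bases before the start, chr8:3500464-3500489, plus strand: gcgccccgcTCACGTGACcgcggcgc
Cln3, 121 bases before the start, chr7:126583342-126583367, minus strand: cgggtactGTCACGTGACccccaacc
Naglu, 73 bases before the start, chr11:101070011-101070036, plus strand: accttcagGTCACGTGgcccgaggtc
Ctsa, 12 bases before the start, chr2:164833751-164833772, plus strand: agcaaactGTCACGTGAtgcag
Ctsl, 236 bases before the start, chr13:64370741-64370766, minus strand: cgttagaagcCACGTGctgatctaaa
Gla, 194 bases before the start, chrX:134601184-134601209, minus strand: agatctcgGTCACGTGAgcaactctc
Ctsd, 98 bases before the start, chr7:142387910-142387935, minus strand: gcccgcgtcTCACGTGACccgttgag
Lamp1, 4 copies 61, 45, 28 and 15 bases before the start, chr8:13159085-13159160, plus strand: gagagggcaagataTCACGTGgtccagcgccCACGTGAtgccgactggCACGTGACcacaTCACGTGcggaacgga
Lgmn, 49 bases before the start, chr12:102439121-102439156, minus strand: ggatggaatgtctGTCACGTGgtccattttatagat

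In 17 of the 18 sites of these 11 members at least 1 base next to the core went on matching the longest palindrome, so that 10 of the 11 held a 7-base match on 1 strand or the other. Cln3 had the full palindrome, Ctsa and Gla matched all but its last base, in Gaa, Glb1, Naglu and Lgmn only bases before the core went on matching, and in Ctsl no neighbouring base did. Lamp1 had 4 copies within its window and no other member had more than 2. The printed windows of Mcoln1, Cln3, Naglu, Ctsa, Ctsl, Gla and Ctsd overlapped an exon of some gene in the GENCODE M21 annotation. Some windows, such as those of Ctsa and Lgmn, lay inside the GENCODE bounds of their own gene. A place before the RefSeq start is therefore not always outside the gene.

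The 11 genes with CACGTG and the 21 without it differed in how they stood in the DON comparison, a description made after the fold changes were seen, without a test. With DON against GM-CSF the median log2 fold change was 0.60 for the 11, between 0.10 for Lgmn and 1.30 for Gaa, and 0.19 for the 21, between -0.75 for Arsb and 0.53 for Smpd1. A log2 fold change above 0.5, a limit set after seeing the data, was found for 8 of the 11 and 1 of the 21. Ctsk, Hexa and Cd68, which lack CACGTG, lay just under that limit, at 0.49 each. The share of all tested genes above it is not given here. All 4 members that fell with DON (Ctsc, Arsb, Gusb and Manba) had no CACGTG in the window. With GM-CSF against no GM-CSF the medians were nearer each other, at -0.44 and -0.36, and with DON against no GM-CSF they were 0.11 and -0.33. Over all tested genes with a window the letters went with no such shift in the DON comparison, with a median of 0.01 for genes with them and -0.00 for genes without. Lamp1, with 4 copies, rose by 0.33, and Lgmn, with 1 copy, did not pass.

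**Figure D5:**
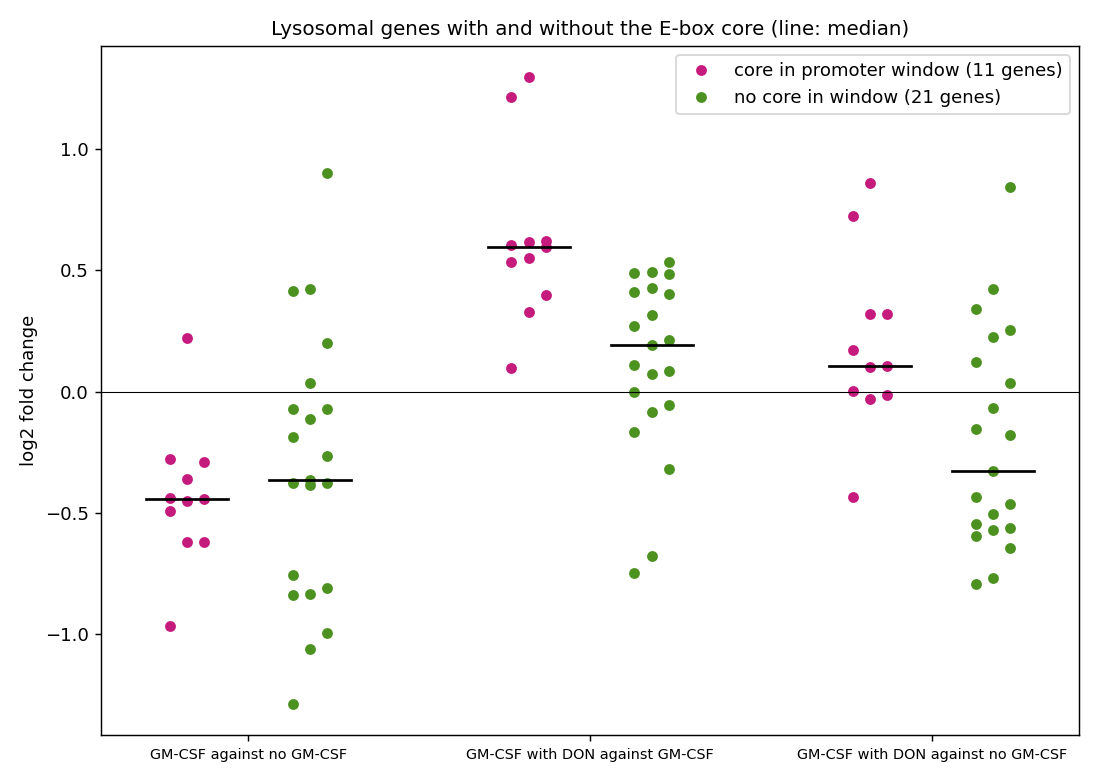
Log2 fold change of each lysosomal gene with a RefSeq promoter window, split by whether the window holds CACGTG (11 genes) or not (21 genes), in the 3 comparisons, with 1 point per gene and a bar for the median. With DON against GM-CSF the medians are 0.60 and 0.19, and the 2 highest points are Gaa and Mcoln1.

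Other lysosomal genes were taken from 3 further lists. Of 30 other hydrolases and their activators, 24 fell and 2 rose with GM-CSF (median log2 fold change -0.58), 24 rose and 2 fell with DON against GM-CSF (0.37), and 9 were higher and 16 lower with DON against no GM-CSF (-0.19). With GM-CSF, 10 of them changed by 2-fold or more. Acp2, lysosomal acid phosphatase, went from 264 and 267 CPM to 92.9 and 95.3 (-1.50 ± 0.04), and Galc, galactosylceramidase, from 123 and 120 to 47.9 and 51.2 (-1.29 ± 0.05). With DON the largest values named by adjusted p were those of Idua, which acts on heparan and dermatan sulfate, from 28.4 and 27.4 CPM to 63.9 and 63.4 (1.19 ± 0.05), and Pla2g15, a lysosomal phospholipase, from 264 and 260 to 473 and 463 (0.84 ± 0.04).

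The next list held 22 genes for other membrane proteins and transporters, with the soluble protein Npc2 counted among them. Of these 22 genes, 15 fell and 2 rose with GM-CSF (median -0.30), 12 rose and 5 fell with DON against GM-CSF (0.24), and 8 were higher and 10 lower with DON against no GM-CSF (-0.06). Slc11a1, the divalent metal transporter of phagosomes, had 371 and 382 CPM without GM-CSF, 54.4 and 62.4 with it, and 98.6 and 94.6 with DON added. Its log2 fold change with GM-CSF, -2.69 ± 0.06, was lower than that of any of the 35. Clcn7, the chloride exchanger of the lysosome, fell with GM-CSF (-0.64 ± 0.04) and rose with DON (0.70 ± 0.04), as did Npc2, which hands over cholesterol (-0.83 ± 0.04 and 0.39 ± 0.04). The sialomucin Cd164 had the opposite signs (0.69 ± 0.04 and -0.22 ± 0.04). The cystine exporter Ctns and the sialic acid exporter Slc17a5 each rose by 0.82 ± 0.06 on the log2 scale with DON. Tpcn1, an endolysosomal cation channel, was lower with DON than in either other group, at 6.15 and 6.97 CPM against 13.1 and 12.8 with GM-CSF and 27.9 and 26.5 without it.

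The 17 genes for sorting of hydrolases and for cathepsin inhibitors had 6 members that rose and 4 that fell with DON against GM-CSF (58.8% called, against 57.6% over all genes; median 0.06), while 11 fell and 2 rose with GM-CSF (-0.19) and 4 were higher and 10 lower with DON against no GM-CSF (-0.16). Cst3, the secreted cathepsin inhibitor cystatin C, fell with GM-CSF from 432 and 417 CPM to 206 and 219 (-0.996 ± 0.05) and rose to 278 and 263 with DON (0.35 ± 0.05). Gnptab, which makes the mannose 6-phosphate tag, was at 141 CPM in both libraries without GM-CSF, 124 and 125 with it and 82.8 and 85.5 with DON added, and was called lower with DON (-0.56 ± 0.04). M6pr, a receptor for that tag, fell in all 3 comparisons, by 0.32, 0.18 and 0.50 on the log2 scale.

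Some members share exon sequence with another gene, and the strand setting of the counting is not given in the sources used here. In the GENCODE M21 annotation of GRCm38, 12 of the 35 share exon bases with another gene, 6 of them over more than 300 bases. Among these, Ctsb overlaps Fdft1 by 774 bases, Ctsa overlaps Pltp by 495 and Cln3 overlaps Apobr by 442. The partner genes were far less abundant than Ctsb and Ctsa: Fdft1 had mean levels of 51.5, 12.2 and 23.2 CPM and Pltp 118, 12.8 and 24.2 in the 3 groups, taken in the order no GM-CSF, GM-CSF and DON. Apobr, at 133, 95.9 and 73.3 CPM, was about as abundant as Cln3, whose counts are therefore uncertain. Ppt1 shares 129 bases with Cap1, which was more abundant, at 1225, 986 and 926 CPM against 140, 186 and 250 for Ppt1. The counts of Ppt1 are therefore uncertain too. Ctsd, Ctsl and Arsb each overlap a predicted gene model, and how shared reads were assigned was not tested.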

How the data were processed

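RNA was prepared with an RNeasy kit and sequenced on an Illumina HiSeq, per the labels' protocols. The authors deposited raw counts per gene symbol and, in a second table, FPKM values for the same genes. The submitters' processing notes name the build mm10 and the tools DESeq2 1.28.1, Subread 1.4.6, featureCounts and STAR 2.6.0a, with no role for each; the gene annotation is not given in the sources used here. Groups came from titles and treatment labels.

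Counts were filtered with filterByExpr (minimum count 10), scaled with TMM (trimmed mean of M values) and fitted with edgeR 4.0.16 (R 4.3.3) as 1 model of 3 groups over 6 libraries, with 3 residual and 6.74 prior degrees of freedom and a common biological coefficient of variation of 0.0501. Each comparison was a two-sided quasi-likelihood test, Benjamini-Hochberg adjusted over all 12340 genes. The script was tested on simulated data. CPM used TMM-scaled library sizes; shares used unscaled counts. FPKM served for levels between genes and, with limma 3.58.1 on log2(FPKM + 1) and log2(FPKM + 0.1), as an alternative. Other alternatives were DESeq2 1.42.0, its size factors, total counts, no filter, only the 4 libraries compared, a replicate block and leaving out each library. Replicate libraries differed beyond sampling noise (chi-square per degree of freedom 8.90, 5.54 and 4.67). The members, lists and marker genes were chosen with earlier results of these data known; the promoter split, its 0.5 limit and the background of equally abundant genes were added after seeing the data. Members given library by library were those with the 4 largest called changes each way per comparison, the 2 highest in FPKM per class and those opposing their class, with most others given so that every member is accounted for. From the other lists, up to 4 genes with the smallest adjusted p per comparison could be named; Tpcn1 and M6pr come from the third comparison. Coordinates are from GENCODE M21 (GRCm38).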

Additional observations from a re-analysis of the deposited data

How the results depend on the processing

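Of the 1161 values of single members recomputed under an alternative, none of those called changed direction. With total counts in place of TMM, the class medians of the log2 fold change with GM-CSF were -0.26 for proteases, -0.32 for sugar-chain enzymes, 0.0090 for the lipid group and -0.32 for membrane proteins. With DON against GM-CSF they were 0.37 for sugar-chain enzymes and 0.31 for membrane proteins. With DON against no GM-CSF they were 0.028, -0.36, 0.22 and -0.081 for the 4 classes in the first order. The shift followed from the scaling itself. Without the 10 most abundant genes the members held 3.10%, 2.38% and 2.90% of counts. Leaving out each library in turn left between 30 and 32, 27 and 31, and 26 and 28 members called in the 3 comparisons. Whether the replicate numbers pair the libraries is not known from the labels. Correlations of replicate differences were -0.05 (no GM-CSF and GM-CSF), -0.30 (no GM-CSF and DON) and 0.06 (GM-CSF and DON), which cannot settle it. A replicate block kept 31, 28 and 28 member calls in the 3 comparisons, with 6708, 6882 and 6542 of all genes called. Pairing crossed numbers for DON against no GM-CSF, with only the 4 libraries compared and added after seeing the data, gave 29 member calls. It called 7225 of all genes, against 6859 in the main fit of 6 libraries. Where a group was left with 1 library, that library was assumed to vary like the other groups. With 2 libraries per group, the SE of the members' log2 fold changes was 0.03 to 0.06. Differences above the SE could still fail to pass, such as Fuca1 (0.11 ± 0.05) and Lgmn (0.10 ± 0.04) with DON against GM-CSF. Small differences may therefore have been missed.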
